A study of Mus musculus with 9 samples.

Results

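The 10 genes described here are Pou2f3, Trpm5, Dclk1, Gnat3, Gng13, Plcb2, Alox5ap, Avil, Sh2d6 and Chat, a set used to mark tuft cells. They were taken by symbol from the deposited table, where all 10 were found among 56748 genes. RNA was sequenced from wild-type primary airway basal stem cells of the mouse trachea, kept at an air-liquid interface, where the cells sit on a membrane with medium below and air above. By their labels all groups share the genotype and the culture and differ in the day of collection, with 3 libraries each on days 1, 3 and 5. The submitters name these days as stages of proliferation, of stratification and of luminal cell specification. The labels give neither the strain, the age nor the number of animals, and they do not say whether the libraries of a day came from separate cultures, so p-values here cover only the spread between the samples at hand, and that spread may be technical.

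Tuft cells, called brush cells in the trachea, are rare epithelial cells with a stiff bundle of apical microvilli that sense bitter compounds, bacterial products and other luminal cues through the machinery of taste. Ligand binding to a taste receptor releases a G protein, phospholipase C beta 2 then raises calcium, and calcium opens the channel TRPM5. Airway tuft cells are known to answer with cysteinyl leukotrienes, the cytokine IL-25 and acetylcholine, and the POU-domain factor POU2F3 is needed for them to form. In bulk RNA, fewer cells of a type and less RNA per cell cannot be told apart, so each level below is that of the whole culture.

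Depth ran from 16.4 to 35.1 M reads per library and fell with time, from a mean of 30.8 ± 4.29 M (SD, n = 3) for day 1 to 21.9 ± 2.55 M for day 3 and 17.6 ± 1.51 M for day 5. Levels are normalized counts, which are reads divided by the authors' size factor of each library, and a level with ± is the mean and SD of a day's 3 libraries. The basal keratin Krt5 and the basal factor Trp63, defining markers of the labelled cell type, were at 38922 ± 5823 and 2798 ± 472 normalized counts on day 5. From reads pooled per day, these were 0.356-fold and 0.755-fold their day 1 levels, while Krt15 and Ngfr were at 3.05-fold and 5.59-fold theirs. The list of 8 basal markers held 4 called higher and 4 called lower on day 5 than on day 1 by the test described below. Over all tested genes 36.7% were called higher and 37.7% lower. The sum of the luminal markers Krt8, Scgb1a1, Scgb3a2 and Foxj1 was 12612 ± 778, 22968 ± 1400 and 105699 ± 27056 on days 1, 3 and 5. Krt8 made up nearly all of the day 1 and day 3 sums, and on day 5 was 0.520-fold its day 3 level. Scgb1a1 and Scgb3a2, with 242 and 39 reads on day 3 and 47827 and 184382 on day 5, made up most of the day 5 sum. The day 1 libraries stood apart in genes of the sex chromosomes. The sum of 4 Y-linked genes fell from 3137 ± 113 normalized counts on day 1 to 324 ± 24.2 and 461 ± 98.3 on days 3 and 5. Xist, transcribed from the inactive X chromosome of female cells, was at 1825 ± 246, 5998 ± 507 and 7373 ± 1292. The day and this sex-linked difference cannot be told apart in any comparison with day 1, and these values were closer to each other between days 3 and 5.

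Of the 10 genes, 9 reached the minimum for testing, 10 normalized counts or more in 3 or more of the 9 libraries, and Chat did not. Of these 9, 7 passed it only through the day 5 libraries, so a rise of those 7 on day 5 is partly built into their selection, and counts over the tested genes are descriptions. Alox5ap would not have passed the minimum without the day 3 libraries, so a high day 3 is partly built into its selection. Changes below are limma estimates on the log2(normalized count + 1) scale, where the added 1 makes changes of low genes look smaller than they are, with p-values adjusted over all 17338 tested genes and a threshold of 0.05. Ratios are linear, from reads pooled over the 3 libraries of a day, and their 95% exact intervals cover counting error only.

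Pou2f3 (ENSMUSG00000032015), the transcription factor of the tuft lineage, rose at both steps. It was at 2.71, 1.66 and 0.606 normalized counts in the 3 libraries of day 1, at 8.74, 4.02 and 7.89 on day 3, and at 51.5, 52.9 and 45.5 on day 5. No library of a later day reached down into the range of an earlier one. The change from day 1 to day 3 was 1.59 ± 0.40 (SE; adjusted p = 0.00437), and the change from day 3 to day 5 was 2.75 ± 0.40 (adjusted p = 1.8e-04). On the linear scale the level on day 5 was 7.12-fold that on day 3 (4.33 to 12.4) and 31.0-fold that on day 1 (14.6 to 78.5). The early values rest on 7 reads over day 1 and 18 reads over day 3, against 130 on day 5.

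POU2F3 is an octamer-binding protein, so the start-site regions of the other tuft genes were searched for the octamer ATGCAAAT and for its 7-base parts ATGCAAA and TGCAAAT, on both strands; the parts overlap each other and the whole. The windows are those of RefSeq for GRCm38.p6, an earlier build than the GRCm39 of the submitters' processing notes, and run from 250 bases before to 50 bases after each annotated start. Windows were found for 8 of the 10 genes, 10 windows in all, and none for Pou2f3 and Alox5ap. The whole octamer was in 0 of these 10 windows and in 1.74% of all 32851 RefSeq windows. Avil held ATGCAAA at 2 places, one starting 15 bases before the start on the gene's own strand and another 115 bases before it on the opposite strand; that part was in 4.63% of all windows. Chat held TGCAAAT 20 bases before its start, and 4.02% of all windows held that part. Among the 66 other tuft-list genes described further on, 57 had a window, 70 windows in all, and the whole octamer was in 8 of these (11.4%), those of 1810046K07Rik, Hpgds, Il4ra, Itpr3, Rgs21, Sucnr1, Tas2r108 and Tas2r135. That search of the lists was made after results were seen. The 8 genes include some that did not rise on day 5, as their values below show. In Hpgds, a gene of prostaglandin synthesis, the octamer began 174 bases before the start. A match describes letters, not a site that is bound. The windows of Avil (chr10:127000459-127000758, plus strand) and Hpgds (chr6:65144681-65144980, minus strand) are shown because they hold matches, Hpgds as 1 of the 8 picked for its rise on day 5, and those of Trpm5 (chr7:143094593-143094892, minus strand) and Gnat3 (chr5:17962320-17962619, plus strand) because these genes had steep rises on day 5. Each is written 5′ to 3′ along the gene, with capitals for the matches and for the first transcribed base.
Avil: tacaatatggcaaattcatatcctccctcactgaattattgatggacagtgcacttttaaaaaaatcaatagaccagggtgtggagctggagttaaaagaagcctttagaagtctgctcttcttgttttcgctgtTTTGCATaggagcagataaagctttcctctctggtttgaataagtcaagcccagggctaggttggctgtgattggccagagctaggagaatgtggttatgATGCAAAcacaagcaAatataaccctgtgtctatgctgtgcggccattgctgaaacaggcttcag
Hpgds: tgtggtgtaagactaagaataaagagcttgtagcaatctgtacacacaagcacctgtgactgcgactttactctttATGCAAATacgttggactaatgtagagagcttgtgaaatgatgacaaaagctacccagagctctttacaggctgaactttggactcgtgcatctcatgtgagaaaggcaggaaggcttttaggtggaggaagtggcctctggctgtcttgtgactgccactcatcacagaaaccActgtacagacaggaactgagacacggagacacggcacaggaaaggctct
Trpm5: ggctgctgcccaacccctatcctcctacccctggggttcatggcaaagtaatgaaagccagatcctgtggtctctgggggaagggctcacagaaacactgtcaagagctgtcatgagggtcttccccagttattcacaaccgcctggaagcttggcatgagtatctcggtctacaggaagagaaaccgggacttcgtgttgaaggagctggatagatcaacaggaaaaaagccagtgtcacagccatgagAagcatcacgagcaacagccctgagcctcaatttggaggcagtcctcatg
Gnat3: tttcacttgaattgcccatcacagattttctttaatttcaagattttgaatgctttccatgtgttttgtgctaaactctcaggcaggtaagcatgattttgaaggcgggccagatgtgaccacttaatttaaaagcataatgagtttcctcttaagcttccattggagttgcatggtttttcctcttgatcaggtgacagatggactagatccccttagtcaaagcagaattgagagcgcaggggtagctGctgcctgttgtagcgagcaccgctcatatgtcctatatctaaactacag

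**Figure D1:**
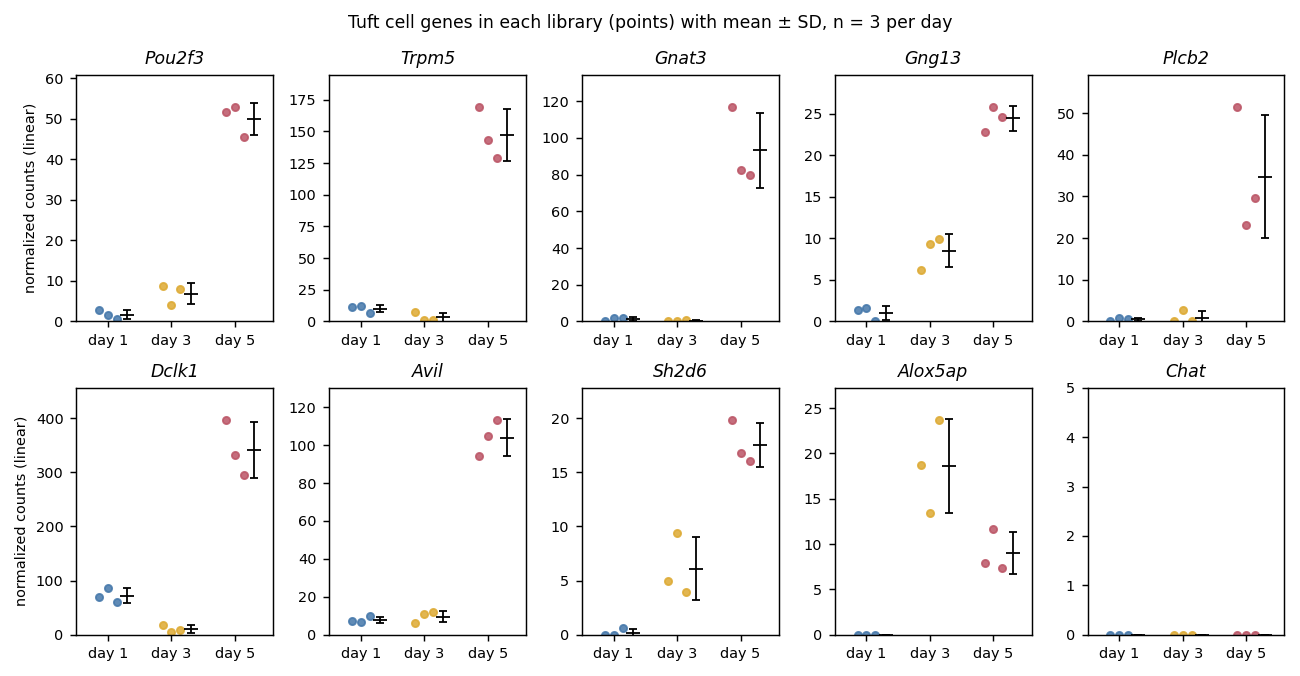
Normalized counts (linear y axis, own scale per panel) of the 10 tuft cell genes on days 1, 3 and 5; points are libraries, horizontal ticks and bars are mean ± SD (n = 3). For 8 genes every day 5 library lies above every library of the earlier days, Alox5ap is highest on day 3, and Chat is at 0 throughout.

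The taste transduction genes had means of at most 10.2 normalized counts on days 1 and 3 and were higher on day 5. Gnat3 (ENSMUSG00000028777), the G protein alpha subunit gustducin, was at 0, 1.66 and 1.82 normalized counts on day 1, at 0, 0 and 0.987 on day 3, and at 117, 82.6 and 79.99 on day 5. Day 3 held a single read in all. The change from day 3 to day 5 was 6.21 ± 0.49 (SE; adjusted p = 2.8e-06), the largest of the 9 tested genes in that comparison. The linear ratio was 244, with a counting interval from 43.3 to 9661 that reflects that single read, and against day 1 the ratio was 82.3 (34.8 to 256).

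Trpm5 (ENSMUSG00000009246), the calcium-activated cation channel at the end of the cascade, was at 11.5, 12.5 and 6.67 normalized counts on day 1, at 7.49, 1.34 and 0.987 on day 3, and at 169, 143 and 129 on day 5. Its level on day 3 was below that on day 1 by limma, with a change of -1.68 ± 0.51 (SE; adjusted p = 0.0124), although day 3 replicate 1 lay inside the range of the day 1 libraries. The pooled reads gave a level 3.18-fold lower on day 3 (1.48 to 7.83), from 43 against 8 reads. From day 3 to day 5 it rose by 5.44 ± 0.51 (adjusted p = 9.2e-06), a linear ratio of 47.7 (24.0 to 111), and day 5 was 15.0-fold above day 1 (10.9 to 21.1). The day 5 libraries all lay far above both earlier days.

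Plcb2 (ENSMUSG00000040061), the phospholipase between G protein and calcium, had 2 reads over the day 1 libraries, 2 over day 3, both in replicate 2, and 94 over day 5. Its day 5 libraries were at 51.5, 23.2 and 29.5 normalized counts, the widest relative spread among the tested genes on that day, and all lay above every earlier library. The change from day 3 to day 5 was 4.46 ± 0.57 (SE; adjusted p = 7.4e-05), and the linear ratio was 46.4 (12.5 to 388). Between days 1 and 3, both at or under 3 reads, the change was 0.11 ± 0.57 (adjusted p = 0.878), and leaving out either day 1 replicate 1 or day 3 replicate 2 turned its sign.

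Gng13 (ENSMUSG00000025739), the G protein gamma subunit that pairs with gustducin, differed from the other 3 in rising before day 5. It was at 1.356, 1.66 and 0 normalized counts on day 1, at 6.25, 9.37 and 9.87 on day 3, and at 22.8, 25.8 and 24.6 on day 5. The 3 days did not overlap. The steps were 2.34 ± 0.42 to day 3 (SE; adjusted p = 4.8e-04) and 1.44 ± 0.42 to day 5 (adjusted p = 0.0113), with linear ratios of 9.30 (3.16 to 37.1) and 2.82 (1.71 to 4.82). Under quantile normalization the later step was 0.81 (adjusted p = 0.139) and did not pass. In GENCODE M21, an annotation of GRCm38, 51.6% of the exonic bases of Gng13 lie under exons of Chtf18 on the opposite strand, and whether the counting used strand is not given in the sources used here. Chtf18 was at 611 ± 79.9, 360 ± 40.4 and 80.9 ± 5.02 normalized counts on days 1, 3 and 5, an order opposite to that of Gng13.

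Dclk1 (ENSMUSG00000027797), a microtubule-associated kinase used as a tuft cell marker in many epithelia and also known from neurons, had a V-shaped course. It was at 69.2, 87.2 and 60.6 normalized counts on day 1, at 18.7, 5.36 and 7.89 on day 3, and at 396, 332 and 294 on day 5. Each day was separate from the other two. It fell by 2.81 ± 0.37 to day 3 (SE; adjusted p = 5.6e-05), 6.73-fold on the linear scale (4.53 to 10.4), and rose by 5.03 ± 0.37 to day 5 (adjusted p = 1.8e-06), 32.7-fold (22.3 to 49.9). The fall was by 1.84 once the trend of transcript length and GC content was taken out. The net rise from day 1 to day 5 was 2.23 ± 0.37 (adjusted p = 2.7e-04), the smallest of the 9 tested genes, and day 1 held 307 reads of it.

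Avil (ENSMUSG00000025432) encodes advillin, an actin-bundling protein of the villin family found in tuft cell microvilli. It was at 7.46, 6.64 and 9.70 normalized counts on day 1, at 6.25, 10.7 and 11.8 on day 3, and at 94.1, 105 and 113 on day 5. Days 1 and 3 overlapped, with a change of 0.22 ± 0.30 (SE; adjusted p = 0.535) and a linear ratio of 1.21 (0.693 to 2.08). The step to day 5 was 3.35 ± 0.30 (adjusted p = 7.3e-06), 10.6-fold (7.01 to 16.6).

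Sh2d6 (ENSMUSG00000052631) is an SH2-domain adaptor gene with tuft-restricted expression in several epithelia. It was at 0, 0 and 0.606 normalized counts on day 1, at 5.00, 9.37 and 3.95 on day 3, and at 19.8, 16.8 and 16.0 on day 5. Like Pou2f3 and Gng13 it stepped up both times with no overlap between days, by 2.53 ± 0.40 to day 3 (SE; adjusted p = 2.0e-04) and by 1.45 ± 0.40 to day 5 (adjusted p = 0.00845). The linear ratio of day 5 to day 3 was 3.02 (1.66 to 5.83), from 15 and 46 reads. Under quantile normalization the later step was 0.77 (adjusted p = 0.110).

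The 2 effector genes departed from the rest. Alox5ap (ENSMUSG00000060063) encodes FLAP, the protein that hands arachidonic acid to 5-lipoxygenase at the first step of leukotriene synthesis. It had no read in any day 1 library, was at 18.7, 13.4 and 23.7 normalized counts on day 3, and at 7.93, 11.6 and 7.38 on day 5. Day 3 was the highest, without overlap with either other day. Alox5ap reached the minimum for testing only with the day 3 libraries, so that peak is partly built into its selection. FLAP is also made by blood leukocytes, and several leukocyte markers were highest on day 3 too: Itgam, which shares most of its exons with Gm49368, had 16, 48 and 14 reads on days 1, 3 and 5, Fcer1g 16, 28 and 9, Cd74 18, 83 and 47, and Cd68 1130, 4150 and 419. Other listed leukocyte markers ran differently: Lyz2 had 2, 1376 and 181987 reads on days 1, 3 and 5, Csf1r 3, 1 and 35, and Cd79a 13, 5 and 11. Cd3e had 1, 5 and 1 reads. Ptprc, Tyrobp, Cpa3 and Ms4a2 had no read on day 3. The part of such cells in the level of Alox5ap was not tested. Against the 3 reads that a count of 0 allows over the day 1 libraries, it was at least 27.6-fold higher on day 3 and at least 12.8-fold higher on day 5. From day 3 to day 5 it fell by 0.96 ± 0.36 (SE; adjusted p = 0.0338), a linear ratio of 0.463 (0.269 to 0.774) from 49 and 23 reads. That fall depended on the setting: its adjusted p was 0.0515 after adding 0.5 in place of 1, 0.111 with no filter, 0.063 with a replicate block and 0.0736 after removal of the length and GC trend. Leaving out day 3 replicate 1, day 3 replicate 3, day 5 replicate 1 or day 5 replicate 3 gave adjusted p of 0.0808, 0.113, 0.0657 and 0.0824.

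Chat (ENSMUSG00000021919), choline acetyltransferase, the enzyme that makes acetylcholine, had no read in any of the 9 libraries. A count of 0 allows a level of up to 0.316 normalized counts over all libraries together, for counting error only. The choline transporter Slc5a7 had none either. To complete the list, and named after their values were seen, the vesicular acetylcholine transporter Slc18a3 had 1 read, on day 5, and the esterases Ache and Bche had 30 and 21 reads over the 9 libraries. None of the 5 acetylcholine genes reached the minimum for testing, so transcripts of this output were not detectable or near the limit at this depth.

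**Figure D2:**
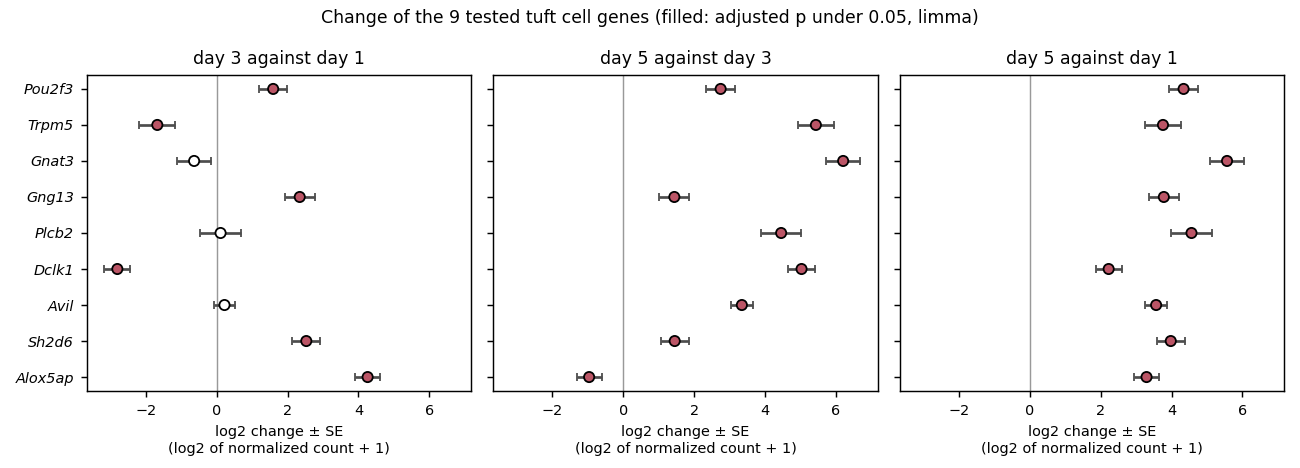
Change of the 9 tested tuft cell genes, as limma log2 change ± SE on the log2(normalized count + 1) scale, in the 3 comparisons; filled points passed an adjusted p of 0.05. From day 3 to day 5 only Alox5ap lies below 0, at -0.96, while from day 1 to day 3 the genes lie on both sides, from -2.81 to 4.26.

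The genes moved in different directions from day 1 to day 3, and all but Alox5ap and Chat rose from day 3 to day 5. Of the 9 tested genes, 4 were higher and 2 lower on day 3 than on day 1, and 3 did not pass; 36.1% of all tested genes were called higher, 37.0% lower and 73.0% in either direction in that comparison. The libraries of 4 genes were higher without overlap and those of 1 were lower, where 37.9% and 39.4% of all tested genes did so, so the counts at this step are near or below the background. The median change was 0.22, against 0.00 for all tested genes. From day 3 to day 5, 8 of 9 were higher and 1 lower, where 34.8% of all tested genes were called higher, 32.4% lower and 67.3% in either direction, and each of the 9 was without overlap, against backgrounds of 36.8% higher and 34.2% lower. Their median change was 3.35, against 0.06 for all tested genes, and 4.46% of all tested genes had a change above 3.35. As 7 of the 9 passed the minimum only through day 5, the day 5 counts and medians here are partly built into the selection. They are descriptions, also beside the values of all tested genes. From day 1 to day 5 all 9 tested genes were higher by the test and by their libraries, against 36.7% of all tested genes called higher, 37.7% called lower and 74.5% called in either direction, and 38.0% and 38.9% higher or lower without overlap. The median of that change was 3.78, against -0.06 for all, and setting Alox5ap at its bound left it at 3.78. The 3 comparisons share libraries in pairs, so their values are not independent of one another.

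Over the 10 genes together the level was 95.0 ± 15.9 normalized counts for day 1, 64.8 ± 7.73 for day 3 and 821 ± 98.5 for day 5. Dclk1 made up most of the day 1 sum. Without it the sums were 22.7 ± 2.47, 54.2 ± 4.42 and 480 ± 47.4, so the order of days 1 and 3 turned with that single gene.

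Levels can be compared between genes only per length. On day 5, per kb of merged exon in GENCODE M21, Gnat3 was the highest at 68.5 ± 15.1 normalized counts per kb, and its lowest library lay above every library of the next gene. Gng13 at 31.6 ± 1.97 and Avil at 30.6 ± 2.81 per kb followed with overlapping libraries, then Trpm5 at 23.0 ± 3.19 and Dclk1 at 22.3 ± 3.38, which also overlapped. Pou2f3 at 16.2 ± 1.27 and Sh2d6 at 10.4 ± 1.19 per kb were separate from their neighbours. Alox5ap at 6.32 ± 1.62 and Plcb2 at 5.27 ± 2.25 overlapped at the low end, and Chat was at 0. The order depends on the length used: per kb of the longest transcript Dclk1 came next after Gnat3 at 42.8, followed by Trpm5 at 35.7. The place of Gng13 is uncertain too, since 51.6% of its exonic bases lie opposite exons of Chtf18 and the use of strand is unknown. On day 3 the highest level per kb of merged exon was that of Alox5ap, 13.1 ± 3.63, followed by Gng13 at 11.0 ± 2.54, and on day 1 it was that of Dclk1, 4.73 ± 0.886.

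**Figure D3:**
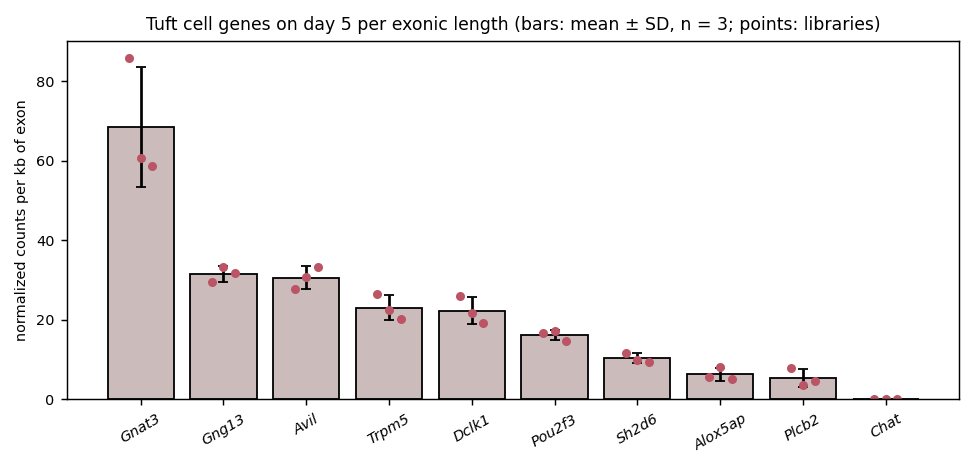
Day 5 levels of the 10 tuft cell genes in normalized counts per kb of merged exon (linear axis from 0); bars are means, error bars SD (n = 3) and points libraries. Gnat3 stands at 68.5 per kb, 6 genes lie between 10.4 and 31.6, and Alox5ap and Plcb2 are the lowest detected.

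Genes with a like course over the 9 libraries were sought for the 2 tuft genes with a mean of at least 50 normalized counts, Trpm5 and Dclk1, among 12909 tested genes of that level. For Trpm5 these were Ccn3, 2210408I21Rik and Prr18, with Pearson's r of 0.990, 0.983 and 0.979 on the log2(normalized count + 1) scale. Ccn3, a secreted matricellular protein gene, was at 8.11 ± 2.95, 1.25 ± 2.16 and 240 ± 27.8 normalized counts on days 1, 3 and 5. For Dclk1 they were Lrrc49, Edaradd and Slc41a2, with r of 0.990, 0.983 and 0.983. An r of at least 0.95 was reached by 58 genes for Trpm5 and 68 for Dclk1. The 9 points share the 3 days and the 9 libraries, so r mostly reflects the day.

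Further lists of the tuft cell program, 7 in all, gave 66 genes beside the 10, of which 42 were tested, 12 of them through the day 5 libraries only. From day 3 to day 5, 20 of the 42 were higher, 8 lower and 14 did not pass, with a median change of 0.23; over all tested genes 34.8% were higher and 32.4% lower, with a median of 0.06. From day 1 to day 3, 21 of the 42 were higher and 6 lower, where 36.1% and 37.0% of all tested genes were. From day 1 to day 5, 26 were higher and 10 lower, where 36.7% and 37.7% of all tested genes were. Genes that passed the minimum only through day 5 had to be high there, so the list counts below are descriptions: these were 3 of the 9 tested regulators, 6 of 13 taste genes, 1 of 7 eicosanoid genes, 2 of 7 cytoskeletal genes and 7 of 12 adaptors and kinases, the tuft cell genes on each list included. These lists hold many genes that other cells use too, and their day 5 behaviour differed by list, as the plot of list genes shows.

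**Figure D4:**
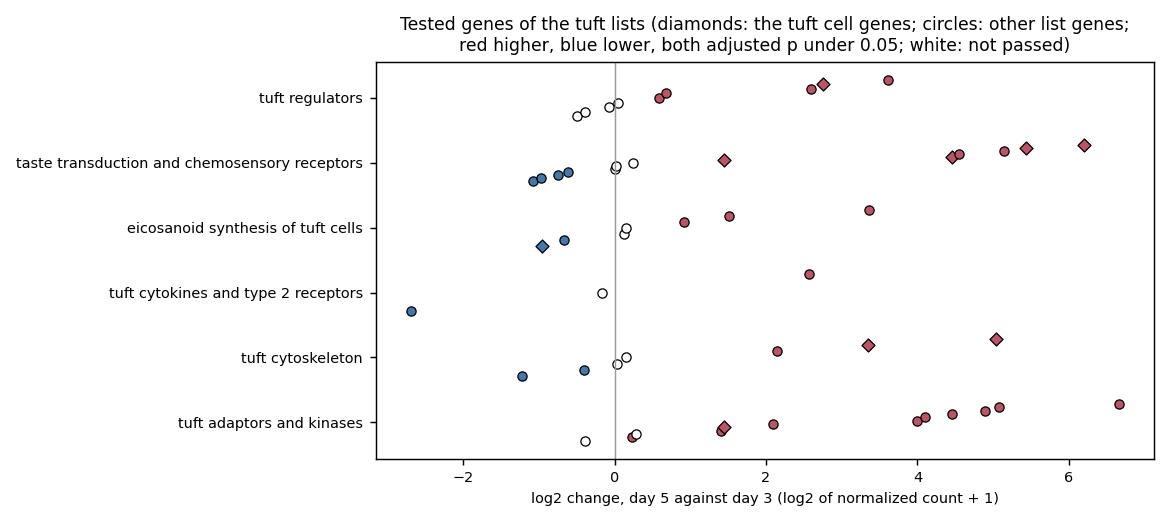
Log2 change from day 3 to day 5 (x axis, log2(normalized count + 1) scale) of the tested genes of 6 tuft lists; diamonds are the 10-gene set, circles other list genes, red passed as higher, blue as lower and white did not pass. The adaptor and kinase list lies mostly to the right, while blue circles of taste transduction, between -1.07 and -0.61, are Gnai2, Itpr3, Gnb1 and Plcg2.

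Of 14 adaptor and kinase genes 12 were tested, 7 of them through the day 5 libraries only. Of the 12, 10 were higher on day 5 than on day 3 and none lower, where 34.8% of all tested genes were higher. The median was 3.04, or 2.89 with the 3 genes that had no day 3 read set at their bounds. Hepacam2, a cell adhesion gene of tuft cells, went from 0.745 ± 0.659 to 166 ± 6.23 normalized counts, a change of 6.66 ± 0.40 (SE; adjusted p = 4.7e-07) and a linear ratio of 213 (58.6 to 1765) resting on 2 reads of day 3. Irag2 (also called Lrmp), a membrane protein of the endoplasmic reticulum, went from 6.11 ± 2.13 to 231 ± 21.4, 36.6-fold (22.4 to 64.5; change 5.07 ± 0.32, adjusted p = 7.2e-07). Bmx, a Tec-family kinase, went from 24.2 ± 15.6 to 380 ± 43.0, 16.4-fold (12.6 to 21.7; change 4.10 ± 0.62, adjusted p = 2.2e-04). Ptpn6, a tyrosine phosphatase shared with blood cells, was at 201 ± 22.7, 471 ± 20.8 and 577 ± 80.8 on days 1, 3 and 5, and the adaptor gene Skap2 at 859 ± 74.1, 2034 ± 53.2 and 2383 ± 28.3. Sh2d7, a relative of Sh2d6 named here after its values were seen, had 0 reads on day 3 and 29.4 ± 7.40 normalized counts on day 5, at least 25.6-fold higher.

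Among 11 regulators, 9 were tested and 5 were higher on day 5 than on day 3, none lower. Over all tested genes 34.8% were higher and 32.4% lower. The coactivator gene listed in the table as Colca2 (Pou2af3), whose protein partners POU2F3, was already high on day 3, at 34.4 ± 9.32, 481 ± 64.5 and 717 ± 24.1 normalized counts on days 1, 3 and 5. Its steps were 3.79 ± 0.19 (SE; adjusted p = 2.4e-07) and 0.58 ± 0.19 (adjusted p = 0.0199), and the later step did not pass without day 3 replicate 1 (adjusted p = 0.0807) or without day 5 replicate 2 (0.0633). The other POU2F3 coactivator, in the table as 1810046K07Rik (Pou2af2) and named after its values were seen, was at 0.202 ± 0.350, 1.91 ± 1.87 and 32.8 ± 19.4. Sox4, a SOX factor of many progenitors, rose by 0.68 ± 0.16 from day 3 to day 5 (adjusted p = 0.0037), or by 0.25 (adjusted p = 0.101) after removal of the length and GC trend, and 54.6% of its exonic bases lie opposite another gene's exons. Sox9 and Runx1, which act in many other cells, changed at the earlier step, by -1.18 ± 0.30 (adjusted p = 0.0044) and 0.77 ± 0.10 (adjusted p = 5.9e-05). They were at 418 ± 132 and 1665 ± 137 on day 1, at 187 ± 65.8 and 2835 ± 259 on day 3, and at 171 ± 33.3 and 2915 ± 203 on day 5.

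In taste transduction, 25 genes were listed and 13 tested. Of the 13, 6 were higher on day 5 than on day 3 and 4 lower, where 34.8% and 32.4% of all tested genes were. The 4 lower ones are genes used in many cells besides taste cells. Gnai2, a broadly used inhibitory alpha subunit, changed by -1.07 ± 0.10 (SE; adjusted p = 6.4e-06), the calcium release channel Itpr3 by -0.98 ± 0.11 (adjusted p = 2.9e-05), the beta subunit Gnb1 by -0.75 ± 0.08 (adjusted p = 2.4e-05) and the phospholipase Plcg2 by -0.61 ± 0.11 (adjusted p = 5.9e-04). Under quantile normalization Gnai2, Itpr3 and Gnb1 changed by -0.57, -0.54 and -0.25 and still passed. Trpm4, the close relative of Trpm5 in many tissues, rose early, by 1.56 ± 0.09 from day 1 to day 3 (adjusted p = 5.0e-07), and was at 1390 ± 106 on day 3 and 1395 ± 59.3 on day 5. Itpr2, another calcium release channel, was at 356 ± 41.6, 554 ± 50.8 and 565 ± 70.5 on days 1, 3 and 5. Named after their values were seen, Gnb3, the beta subunit of taste cells, went from 1.91 ± 1.87 on day 3 to 85.2 ± 13.0 normalized counts on day 5, 43.0-fold (18.1 to 134; change 5.15 ± 0.52, adjusted p = 1.5e-05), and Rgs13, a regulator of G protein signalling, from 0 reads to 22.6 ± 3.58, at least 19.4-fold. Thus on day 5 the gustducin partners Gnb3 and Gng13 were both measured with Gnat3.

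Receptor genes were low or not detected. The bitter receptor genes Tas2r119, Tas2r131 and Tas2r138 and the fatty acid receptor gene Ffar3 had no read in any library. The following receptor genes are named after their values were seen. Tas1r3, a shared subunit of the sweet and umami receptors, was in every library, at 19.5 ± 3.68, 23.1 ± 4.94 and 27.3 ± 4.59 normalized counts on days 1, 3 and 5, a change of 0.24 at the later step (adjusted p = 0.477). Tas1r1, the umami subunit, had 8 reads on day 3 and 60 on day 5, 7.40-fold (3.52 to 17.9), with no overlap of libraries. The fatty acid receptor gene Ffar2 had 1 and 23 reads. The bitter receptor gene Tas2r108 had no read on days 1 and 3 and 39 reads on day 5, 14.2 ± 8.31 normalized counts and at least 12.8-fold higher than on day 3. To complete the list, Tas1r2 had 5, 1 and 0 reads on days 1, 3 and 5, and Tas2r135 had 1, 0 and 1. Tas2r105 had 0, 0 and 3 reads on these days, and Sucnr1 had 2, 0 and 11. Of the receptor genes only Tas1r3 reached the minimum for testing.

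Of the 7 eicosanoid genes, 3 were higher on day 5 than on day 3 and 2 lower. Over all tested genes 34.8% were higher and 32.4% lower. Hpgds, the haematopoietic prostaglandin D synthase whose start-site window is printed beside that of Avil, was at 19.5 ± 5.12, 17.1 ± 7.26 and 174 ± 13.6 normalized counts on days 1, 3 and 5. It rose by 3.36 ± 0.35 at the later step (SE; adjusted p = 1.9e-05), 10.7-fold (7.76 to 15.0). Alox5, the lipoxygenase that FLAP serves, was at 23.3 ± 3.90 on day 3 and 68.7 ± 12.9 on day 5 and rose by 1.51 ± 0.26 (adjusted p = 5.7e-04), while Alox5ap was lower on day 5. Ltc4s, which makes leukotriene C4, was at 15.1 ± 5.69 and 28.6 ± 8.52, a change of 0.91 ± 0.37 (adjusted p = 0.0486) that passed in 5 of the 18 other settings run for it, and 26.4% of its exonic bases lie opposite another gene's exons. Alox5 and Ltc4s were chosen after their values were seen. Lta4h, the leukotriene A4 hydrolase found in most tissues, changed by -0.67 ± 0.08 (adjusted p = 3.9e-05), and by -0.44 under quantile normalization. Pla2g4a, the phospholipase that frees arachidonic acid, fell by 1.45 ± 0.13 from day 1 to day 3 (adjusted p = 4.8e-06) and was at 543 ± 84.2 and 591 ± 68.2 on days 3 and 5.

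Of 7 cytokine and type 2 receptor genes 3 were tested. Il13ra1, a receptor chain for IL-4 and IL-13, was at 821 ± 39.0, 595 ± 47.3 and 3567 ± 624 normalized counts on days 1, 3 and 5, and rose by 2.57 ± 0.12 at the later step (SE; adjusted p = 1.4e-07). Il4ra, its partner chain, was at 764 ± 109, 1099 ± 69.8 and 975 ± 62.5. Il25, the tuft cell cytokine, named after its values were seen, had 0, 3 and 6 reads on days 1, 3 and 5, too few to test. Tslp, an epithelial cytokine named after its values were seen, went from 37.2 ± 14.5 on day 3 to 4.68 ± 0.635 on day 5.

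Of the 7 cytoskeletal genes, 3 were higher on day 5 than on day 3 and 2 lower. The shares over all tested genes were 34.8% higher and 32.4% lower. Among the 3 higher ones, Dclk1 and Avil belong to the 10. Espn, the actin-bundling protein espin, rose from day 1 to day 3 by 2.12 ± 0.20 (SE; adjusted p = 5.4e-06) and was at 134 ± 12.5 and 150 ± 16.5 on days 3 and 5. Krt18, a keratin of all simple epithelia, fell by 1.22 ± 0.13 from day 3 to day 5 (adjusted p = 2.0e-05), or by 0.57 under quantile normalization. Ezr, the membrane linker ezrin, fell by 0.40 ± 0.10 (adjusted p = 0.0047), and under quantile normalization its change was 0.15 (adjusted p = 0.313). Nebl, an actin-binding nebulin relative, was at 539 ± 148, 301 ± 30.3 and 313 ± 64.9 on days 1, 3 and 5.

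Some of these genes are also used by blood cells, neurons or other rare airway cells, whose markers were measured in the same libraries. Of the 12 leukocyte markers, Tyrobp, Cpa3 and Ms4a2 had no read in any library, and Ptprc, the pan-leukocyte gene CD45, had 15, 0 and 1 reads on days 1, 3 and 5. The summed leukocyte level ran from 264 to 299 normalized counts on day 1, from 2181 to 2280 on day 3 and from 63488 to 81663 on day 5, nearly all of it Lyz2 on day 5, a lysozyme gene whose part in the results was not tested. Without Lyz2 and the lysosomal gene Cd68 the sums were 16.3 to 21.2, 60.0 to 80.3 and 37.7 to 51.7. Only 4 of the 12 were tested, with 1 higher and 2 lower from day 3 to day 5. The shares over all tested genes were 34.8% higher and 32.4% lower. Of the untested markers Csf1r, a macrophage receptor gene named after its values were seen and overlapped on the opposite strand by Hmgxb3, had 3, 1 and 35 reads on days 1, 3 and 5, and its day 5 libraries lay above all others. Cd74, of antigen presentation, had 47 reads on day 5. The part of leukocytes in the levels of Hpgds, Ptpn6, Alox5 and the other genes that blood cells share was not tested.

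Most tested markers of the other rare airway cells were also higher on day 5 than on day 3. Of 10 neuroendocrine and neuron markers 5 were tested, 3 of them through the day 5 libraries only, and 4 of the 5 were higher on day 5 than on day 3, none lower, where 34.8% of all tested genes were higher. Their sums ran from 1004 to 1863 normalized counts on day 1, from 39.97 to 68.3 on day 3 and from 363 to 450.4 on day 5. The day 1 sum was nearly all the neuronal tubulin gene Tubb3, which had 5275, 9 and 68 reads on days 1, 3 and 5 and so was lowest on day 3, as Dclk1 was. Without Tubb3 the sums ran from 27.8 to 33.4 normalized counts on day 1, from 38.7 to 68.3 on day 3 and from 340 to 421 on day 5. The granule gene Chga and the peptide gene Calca were at 107 ± 10.6 and 194 ± 36.4 on day 5, while Stmn2, a neuronal gene, had no read on that day. Syp and Snap25, named after their values were seen, had 24 and 75 reads on day 3 and 19 and 69 on day 5. All 6 ionocyte markers were tested, 4 of them through the day 5 libraries only, and were higher on day 5 than on day 3. Over all tested genes 34.8% were higher. The sums of the ionocyte markers were 1236 to 1388, 1226 to 1423 and 3405 to 3989 on days 1, 3 and 5. Atp6v1c2 made up most of each sum, with 5428, 3324 and 7962 reads on those days. The ionocyte factor Foxi1 went from 0.329 ± 0.570 to 154 ± 10.3, and Ascl3 from 8.11 ± 1.22 to 201 ± 8.62. The part of these cells in the levels of Dclk1 and the other tuft cell genes was not tested.

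**Figure D5:**
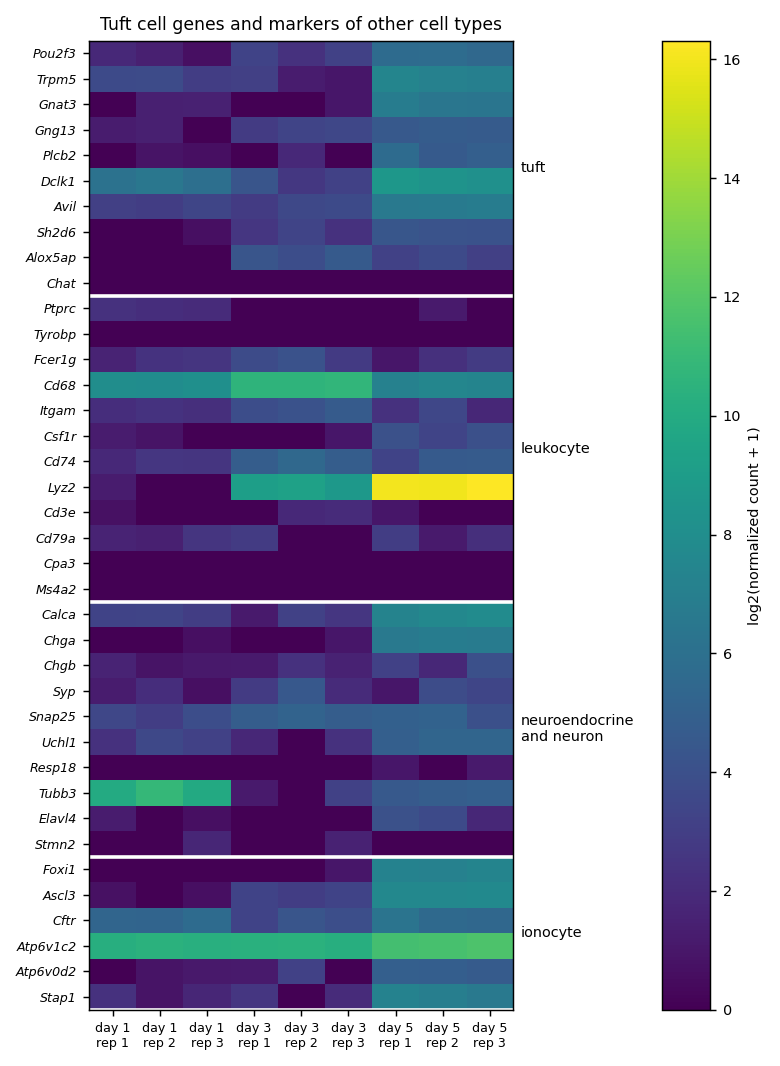
Colour gives log2(normalized count + 1) of the 10 tuft cell genes and of leukocyte, neuroendocrine and neuron, and ionocyte markers (rows) in the 9 libraries (columns). Of the tuft rows 8 are brightest in the 3 day 5 libraries, while Alox5ap is brightest on day 3 and Chat stays at 0; among leukocyte rows Lyz2 and Csf1r are brightest on day 5, Cd68 on day 3, and Tyrobp, Cpa3 and Ms4a2 stay at 0.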

How the data were processed

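Total RNA went into libraries with a VAHTS kit, per the labels. The submitters' processing notes name HISAT2 2.1.0, GRCm39 and DESeq2 1.36.0. How reads were counted, with which annotation and whether by strand is not given in the sources used here. Per the file headers, the authors deposited 1 table of log2 values, each the log2 of reads divided by a size factor, with an error text where a gene had no read, read here as 0 in 297330 cells. Repeated lines (359 of 57107) were dropped. On the linear scale 100% of values were whole multiples of 1 read within 0.1 read, which gave reads and depth. The limma test (limma 3.58.1, R 4.3.3, lmFit and eBayes with a trend, 1 mean per day over 9 libraries, 6 residual degrees of freedom, two-sided, Benjamini-Hochberg) used log2(normalized count + 1) and was tested on simulated data. Libraries were put in groups by day from the sample titles, and no library was left out. Exact binomial intervals came from scipy 1.17.1.

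The genes, lists and tests were chosen with earlier results of these data known. Named list genes are those past the threshold in any comparison with a mean of at least 50 normalized counts, at most 6 per list by size of change, plus any without a read; others are said to be chosen after their values were seen. Fyb1, Pou2af2 and Pou2af3 were matched through older table symbols, and 1 marker of another cell type is not reported here. Alternatives covered pseudocount, filter, scaling, deposited log2 values, replicate block, days fitted, length and GC (98.3% of tested genes had a length) and each library left out. Count models were not run on the recovered reads, since the deposited values are on the log2 scale.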

Additional observations from a re-analysis of the deposited data

How the results depend on the processing

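Of 483 recomputations of the 27 member changes under 19 alternatives, 469 kept direction and side of the threshold, 10 no longer passed, 1 newly passed and 3 reversed. Plcb2 from day 1 to day 3 ran from -0.52 to 0.42 as each library was left out, and was negative without day 3 replicate 2 (-0.52) and without day 1 replicate 1 (-0.15), and Avil over those days was -0.23 with the length and GC trend removed; neither had passed. Requiring at least 50 normalized counts left 4 tested genes and called 2, 4 and 4 from day 1 to 3, day 3 to 5 and day 1 to 5, and the authors' log2 values, with any gene that holds a 0 left out, kept 4 and called 3, 4 and 4, against 6, 9 and 9; fewer genes were tested. Leaving out each library called 6 to 7, 8 to 9 and 9 to 9. Gnat3 from day 1 to day 3 passed only without day 1 replicate 1 (-1.12, adjusted p = 0.0459).

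Same-numbered libraries of different days correlated at -0.31 to 0.14 in their deviations from the day means. Deviations from a mean of so few libraries depend on one another, so these values cannot decide whether the numbers pair libraries, and the labels do not say. The replicate block called 6, 8 and 9, losing only the fall of Alox5ap. A pseudocount of 8 lowered changes of low genes, for example Gnat3 from day 3 to day 5 to 3.59, Plcb2 to 2.22 and Sh2d6 to 0.87, all still passing. Removing the length and GC trend moved the median of all genes from 0.06 to -0.23 from day 3 to day 5 and the calls from 6040 higher and 5624 lower to 4337 and 7376; from day 1 to day 5 they went from 6367 and 6542 to 5520 and 7525. For the 21 list gene changes, added after seeing the data, 378 of 395 recomputations kept direction and call, 16 no longer passed and 1 reversed (Ezr, 0.15 under quantile normalization). The edgeR and DESeq2 alternatives were not run, although whole reads were recovered, since the deposited values are on the log2 scale. Few reads limit days 1 and 3, where Gnat3, Plcb2 and Sh2d6 rest on at most 15 reads a day. Both days were sequenced more deeply than day 5.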
